A study of Homo sapiens with 18 samples.

Results

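The genes described here are a list of ribosome biogenesis factors and nucleolar proteins of the kind that MYC family transcription factors are known to activate, read in 2 human neuroblastoma lines in which the kinase ERK5 was silenced. The list has 42 genes and is defined by gene symbols and not by a cutoff on the measured values, although earlier results of these data were known when it was chosen. Of these, 33 had a probe with their symbol on the array, among 17687 named genes in all. NOP56, DKC1, GNL3, WDR43, BOP1, PPAN, DDX18, EBNA1BP2 and ODC1 were not analysed here. Each of the 33 genes had 1 probe, and the mean signal of each lay above the 25 percentile of all probes, so no gene was dropped for a low signal.

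Ribosomes are built in the nucleolus, where RNA polymerase I transcribes the long ribosomal RNA precursor. Small nucleolar ribonucleoproteins of the box C/D and box H/ACA classes modify that precursor, the small subunit processome cuts and folds the part that becomes the 40S subunit, and a separate set of factors assembles the 60S subunit. MYC and MYCN activate many genes of this pathway by binding E-box sequences near their start sites, and MYCN amplification is a marker of high-risk neuroblastoma. ERK5, encoded by MAPK7, is a mitogen-activated protein kinase.

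SK-N-BE(2) carries amplified MYCN and CHLA-90 does not. Both are established lines, and every group, controls included, received a pLKO lentivirus made in HEK-293T cells, a human embryonic kidney line used for packaging. The virus encoded the control hairpin shNSC or 1 of 2 hairpins against ERK5, shERK5-4 and shERK5-5, applied to 250000 cells per well, and RNA was collected at 72 hours. Each of the 6 groups (SK-N-BE(2) or CHLA-90 with shNSC, shERK5-4 or shERK5-5) had 3 whole-transcript arrays, described by the submitters as biological triplicates. Whether they came from separate transductions is not stated, so p-values measure the spread between these arrays. Values are log2 signals, and array signals have no read depth, so precision is limited by how many arrays there are. The signal of one gene's probe cannot be set against that of another gene.

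Promoter windows from RefSeq (GRCh38.p14, 250 bases before to 50 bases after each annotated start) were found for 28 of the 33 genes. The canonical E-box CACGTG, which reads the same on both strands, occurred in the windows of 14 of these 28 genes (50%). It occurred in 10.793% of the 14250 genes on the array that had a window (1538 genes) and in 7.256% of all 35116 windows. In 6 genes, DDX21, LYAR, NOP10, SRM, UTP20 and UTP4, a match lay wholly upstream of the start, a count not made over all windows. The 4 upstream sequences below belong to the genes among these 6 that have a single annotated window. UTP4 and NOP10 were added to the genes described below after their values had been seen. SRM encodes spermidine synthase, UTP20 and UTP4 encode proteins of the small subunit processome, and NOP10 encodes a core protein of box H/ACA particles. Each runs 5′ to 3′ on the strand of the gene and ends at the base before the start, with CACGTG in capitals. They cover chr1:11060019-11060268 on the minus strand (SRM), chr12:101279855-101280104 on the plus strand (UTP20), chr16:69132589-69132648 on the plus strand (UTP4) and chr15:34343137-34343314 on the minus strand (NOP10). The UTP4 and NOP10 stretches are shorter because they are cut where a neighbouring gene (CHTF8 and DERPC for UTP4, NUTM1 for NOP10) is annotated.
SRM: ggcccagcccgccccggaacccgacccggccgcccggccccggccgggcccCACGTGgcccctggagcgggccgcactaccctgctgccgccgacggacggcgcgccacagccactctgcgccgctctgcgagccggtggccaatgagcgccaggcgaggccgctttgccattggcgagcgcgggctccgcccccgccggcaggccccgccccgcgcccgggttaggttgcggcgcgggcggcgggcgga
UTP20: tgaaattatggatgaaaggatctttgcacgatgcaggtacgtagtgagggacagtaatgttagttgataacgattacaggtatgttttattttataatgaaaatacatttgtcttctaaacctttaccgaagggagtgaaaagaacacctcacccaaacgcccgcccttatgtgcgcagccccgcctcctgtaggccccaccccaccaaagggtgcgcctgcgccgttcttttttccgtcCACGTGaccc
UTP4: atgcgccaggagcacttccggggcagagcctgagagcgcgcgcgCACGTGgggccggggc
NOP10: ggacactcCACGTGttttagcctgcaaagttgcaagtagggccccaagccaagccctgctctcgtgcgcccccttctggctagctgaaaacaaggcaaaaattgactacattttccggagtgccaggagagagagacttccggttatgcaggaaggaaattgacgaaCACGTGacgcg
Counting from the first base of the match, CACGTG began at position -199 from the start in SRM, at -10 in UTP20, at -16 in UTP4, and at -170 and -11 in NOP10. A match is a description of these letters and was not tested as a binding site. SRM, UTP20 and UTP4 fell with shERK5-4 in SK-N-BE(2), while NOP10, with 2 matches, did not pass the test there (values below). In that comparison 11 of the 14 genes with a match and 9 of the 14 without one fell, beside 11.7% of all probes. Their median log2 changes were -0.84 and -0.56. Whether genes with and without a match differed was not tested, and the same split was not made over all genes.

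The 9 SK-N-BE(2) arrays had medians of 5.63 to 5.69 and the 9 CHLA-90 arrays 6.35 to 6.43, which is why the lines were compared only after each array's median had been subtracted. Arrays of a group correlated across probes with r of at least 0.988, and the lowest values were in SK-N-BE(2) with shERK5-4 and CHLA-90 with shERK5-5. The target transcript MAPK7 fell in all 4 comparisons of a hairpin with shNSC, by 0.69 and 0.64 on the log2 scale in SK-N-BE(2) and by 1.07 and 0.99 in CHLA-90 for shERK5-4 and shERK5-5 (limma adjusted p of 0.0319 or less). Of the adrenergic neuroblastoma markers PHOX2A, HAND2, GATA3, ISL1, TH, DBH and CHGA, DBH was low in SK-N-BE(2) (4.60 to 5.07 with shNSC). With shERK5-4, 4 of these 7 fell in SK-N-BE(2) and 5 of 7 in CHLA-90, beside 11.7% and 8.25% of all probes. With shERK5-5, 1 of 7 rose in SK-N-BE(2), beside 6.76% of all probes, and 1 fell in CHLA-90, beside 6.84%. Among 5 mesenchymal or fibroblast markers, 2 fell and 1 rose with shERK5-4 in SK-N-BE(2), beside 11.7% and 12.2% of all probes. In that line the log2 of their summed signal was 14.45 to 14.79 with shNSC and 11.95 to 12.38 with shERK5-4. With shERK5-5 it was 15.99 to 16.00. In SK-N-BE(2) that sum followed LUM, which read 14.27 to 14.66, 11.02 to 11.55 and 15.73 to 15.76 in the same groups, whereas COL1A1 was the marker that rose with shERK5-4 (0.88). In CHLA-90 that sum was 12.30 to 12.40, 11.02 to 11.17 and 12.53 to 12.80. Of these 5, FAP (2.41 to 2.96) and PRRX1 (3.18 to 4.00) were low on every SK-N-BE(2) array. Of the blood markers, PTPRC fell with shERK5-4 in SK-N-BE(2), where the log2 sum of 3 such markers was 7.96 to 8.23 with shNSC and 6.42 to 6.62 with shERK5-4, and CD3E and LYZ were low on every array. The part of these shifts in the results below was not tested.

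The list was named for MYC targets, so MYCN itself is given first. In SK-N-BE(2) MYCN read 17.22, 17.12 and 17.06 with shNSC, 14.84, 15.25 and 15.24 with shERK5-4, and 16.36, 16.29 and 16.34 with shERK5-5. In CHLA-90 it read 8.78, 8.63 and 8.99 with shNSC, 6.71, 6.93 and 7.10 with shERK5-4, and 9.62, 9.63 and 10.06 with shERK5-5. The 3 groups of a line did not overlap in either line, and the order of shERK5-5 and shNSC was opposite in the 2 lines. Relative to shNSC, MYCN fell by 2.02 ± 0.17 (SE, n = 3 per group here and below) with shERK5-4 and by 0.80 ± 0.17 with shERK5-5 in SK-N-BE(2) (limma adjusted p = 7.1e-09 and 0.0022). In CHLA-90 it fell by 1.89 ± 0.17 with shERK5-4 and rose by 0.97 ± 0.17 with shERK5-5 (adjusted p = 3.5e-08 and 0.0005). Of 10 measured genes of the MYC network, MYCN included, 2 fell and 2 rose with shERK5-4 in SK-N-BE(2) by limma. Of all probes 11.7% fell and 12.2% rose. In CHLA-90 with that hairpin 1 fell and 3 rose, beside 8.25% and 10% of all probes. MAX, the dimerisation partner of MYC proteins, and MXI1, which competes for MAX, rose with shERK5-4 in both lines. MAX rose by 0.78 and 0.59 and MXI1 by 1.04 and 1.13, in SK-N-BE(2) and CHLA-90 respectively. MGA, also of this network, went with shERK5-4 from a mean of 10.49 to 9.67 in SK-N-BE(2). In CHLA-90 MGA went from 12.08 to 12.64. With shERK5-5, MYCN was the only one of the 10 that passed in either line.

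In SK-N-BE(2), most of the ribosome biogenesis genes fell with shERK5-4. Of the 33 genes 23 fell (69.7%) and 0 rose by limma at an adjusted p under 0.05, where 11.7% of all 21448 probes fell and 12.2% rose. At an unadjusted p under 0.05 by limma the counts were 25 lower and 0 higher, beside 15.6% and 16.8% of all probes. The median log2 change of the 33 genes was -0.62, beside 0.01 for all probes, and 31 of the 33 changes were below 0. On the single arrays the median of the 33 genes, relative to the shNSC mean, was -0.52, -0.76 and -0.71 with shERK5-4 and between -0.04 and 0.10 with shNSC. For 23 genes all 3 shERK5-4 arrays lay below all 3 shNSC arrays, as did 16.1% of all probes. In bulk RNA, fewer cells of a kind and less RNA per cell cannot be told apart. Without SK-N-BE(2) shERK5-4 replicate 2 and CHLA-90 shERK5-5 replicate 1, the arrays least like the rest of their groups, 19 genes fell and 1 rose.

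**Figure D1:**
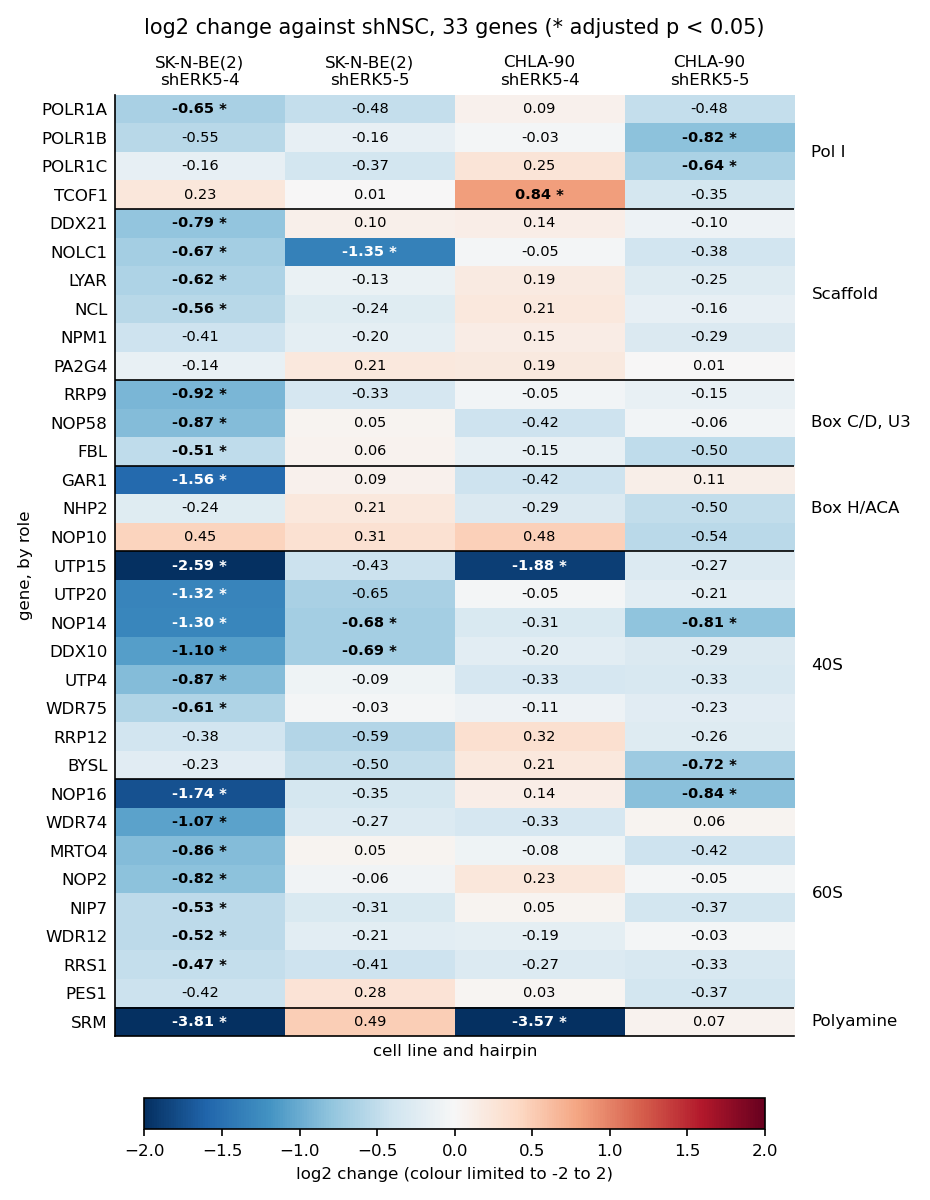
Each cell gives the log2 change of 1 gene (rows, grouped by role) against shNSC for 1 line and hairpin (columns), from the limma fit. Stars and bold type mark an adjusted p under 0.05 over all probes, and colour is limited to -2 to 2. The first column holds 23 marked decreases, the others 3, 2 and 5 decreases, and the only marked increase is TCOF1 in CHLA-90 with shERK5-4.

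Among the genes for RNA polymerase I transcription, POLR1A, the largest subunit of the enzyme, read 11.60, 11.63 and 11.73 with shNSC in SK-N-BE(2) and 11.26, 10.45 and 11.29 with shERK5-4. The 2 groups did not overlap, with the lowest value in shERK5-4 replicate 2, and POLR1A fell by 0.65 ± 0.20 (adjusted p = 0.0203). That decrease no longer passed when shNSC replicate 3 or shERK5-4 replicate 2 was left out (adjusted p of 0.163 at most). POLR1B, the second largest subunit, read 7.07, 6.60 and 6.61 with shNSC and 6.60, 5.84 and 6.18 with shERK5-4, groups that met at 6.60, and its change of -0.55 ± 0.20 did not pass (adjusted p = 0.0536). POLR1C, a subunit shared with RNA polymerase III, read 10.67, 10.81 and 10.50 with shNSC and 10.49, 10.51 and 10.51 with shERK5-4, with overlapping groups and a change of -0.16 ± 0.16. TCOF1, which encodes treacle, a nucleolar factor for ribosomal DNA transcription, read 8.08, 8.69 and 8.58 with shNSC and 8.40, 9.13 and 8.51 with shERK5-4, again with overlap, and a change of 0.23 ± 0.27.

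Of the 6 nucleolar scaffold and multifunctional proteins, 4 fell with shERK5-4 in SK-N-BE(2), with a group median of -0.59. Nucleolin, encoded by NCL and one of the most abundant nucleolar proteins, read 15.12, 15.61 and 15.51 with shNSC and 14.89, 14.59 and 15.08 with shERK5-4. All 3 shERK5-4 values lay below the shNSC values, the nearest pair being 15.08 and 15.12, and NCL fell by 0.56 ± 0.20 (adjusted p = 0.0489). That call lies at the threshold, and it did not hold without shNSC replicate 2 or 3 or without shERK5-4 replicate 1 or 2 (adjusted p of 0.195 at most). NPM1, a histone chaperone that shuttles preribosomes, read 15.92, 15.90 and 15.89 with shNSC and 15.62, 15.21 and 15.64 with shERK5-4, without overlap, but its change of -0.41 ± 0.18 did not pass (adjusted p = 0.108). NOLC1, a chaperone of small nucleolar ribonucleoproteins, read 13.58, 13.48 and 13.70 with shNSC and 12.72, 13.07 and 12.95 with shERK5-4, without overlap, and fell by 0.67 ± 0.16 (adjusted p = 0.0027). DDX21, an RNA helicase of the nucleolus, fell by 0.79 and LYAR, a nucleolar zinc finger protein, by 0.62, while PA2G4, a growth-regulated nucleolar protein, changed by -0.14 without passing.

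All 3 measured genes of the box C/D and U3 particles fell with shERK5-4 in SK-N-BE(2). Fibrillarin (FBL), the methyltransferase of box C/D particles, read 12.23, 11.96 and 12.38 with shNSC and 11.38, 11.67 and 11.98 with shERK5-4. The highest shERK5-4 value overlapped the lowest shNSC value, and FBL fell by 0.51 ± 0.18 (adjusted p = 0.0414). This did not hold without shNSC replicate 1 or 3 or without shERK5-4 replicate 1 or 2 (adjusted p of 0.199 at most). RRP9, a U3-specific protein, fell by 0.92, and NOP58, a core protein of box C/D particles, by 0.87. The 3 measured genes of the box H/ACA particles, which guide pseudouridylation, differed among themselves. GAR1 read 10.14, 10.29 and 10.53 with shNSC and 9.15, 8.37 and 8.76 with shERK5-4, with the groups well apart, and fell by 1.56 ± 0.24 (adjusted p = 3e-05). NHP2 changed by -0.24 ± 0.22 without passing. NOP10 read 14.45, 14.47 and 14.62 with shNSC and 14.86, 14.72 and 15.31 with shERK5-4, so that every shERK5-4 array lay higher, but the change of 0.45 ± 0.23 did not pass (adjusted p = 0.194).

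The small subunit processome and 40S maturation genes fell in 6 of 8 cases with shERK5-4 in SK-N-BE(2), with a median of -0.98. UTP15, a processome subunit that is also needed for transcription of ribosomal DNA, read 9.72, 9.75 and 9.72 with shNSC and 7.40, 6.94 and 7.07 with shERK5-4. No other processome gene of the list had groups as far apart, and UTP15 fell by 2.59 ± 0.18 (adjusted p = 3.3e-10), or 6.04-fold. NOP14 read 10.22, 10.10 and 10.44 with shNSC and 8.88, 9.26 and 8.72 with shERK5-4, without overlap, and fell by 1.30 ± 0.19 (adjusted p = 1.7e-05). UTP20 read 10.74, 11.04 and 10.65 with shNSC and 10.20, 9.05 and 9.21 with shERK5-4, the values of shERK5-4 replicate 1 being closest to the control, and fell by 1.32 ± 0.22 (adjusted p = 6.5e-05). DDX10, an RNA helicase needed for 18S ribosomal RNA, read 10.22, 10.38 and 10.44 with shNSC and 8.88, 9.77 and 9.09 with shERK5-4, without overlap, and fell by 1.10 ± 0.20 (adjusted p = 0.00023). UTP4 read 13.61, 13.91 and 14.04 with shNSC and 13.44, 12.41 and 13.11 with shERK5-4, without overlap, and fell by 0.87 ± 0.20 (adjusted p = 0.0022), and WDR75 fell by 0.61. BYSL, which acts late in 40S maturation, read 9.74, 9.10 and 9.73 with shNSC and 9.13, 9.23 and 9.53 with shERK5-4, with overlapping groups. Its change of -0.23 ± 0.19 did not pass, nor did that of RRP12, an export factor for both subunits (-0.38 ± 0.25).

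Of the 8 genes for 60S assembly, 7 fell with shERK5-4 in SK-N-BE(2), with a median of -0.68. NOP16 read 11.00, 10.97 and 11.13 with shNSC and 9.42, 8.93 and 9.54 with shERK5-4, with the groups well apart, and fell by 1.74 ± 0.18 (adjusted p = 1.6e-07), or 3.33-fold. NOP2, a ribosomal RNA methyltransferase, read 4.89, 5.11 and 5.15 with shNSC and 4.61, 4.05 and 4.02 with shERK5-4, without overlap, and fell by 0.82 ± 0.18 (adjusted p = 0.0017). The mean NOP2 signal over all arrays was low, at the 40.9 percentile of all probes. WDR74 fell by 1.07, MRTO4 by 0.86, NIP7 by 0.53, WDR12 by 0.52 and RRS1 by 0.47. PES1, the partner of WDR12 in the PeBoW complex, changed by -0.42 ± 0.21 without passing (adjusted p = 0.156). In all, 15 of the 23 decreases with shERK5-4 passed without each of the 6 arrays in turn. Besides NCL, FBL and POLR1A, the exceptions were WDR12, WDR75, RRS1, NIP7 and LYAR, with adjusted p of 0.0869 to 0.198 at most. The arrays concerned were each of the 3 shNSC and 3 shERK5-4 arrays for at least 1 gene, and the count over all 33 genes ranged from 17 to 21 without 1 array.

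The largest change of the list in the comparisons with shNSC was that of SRM, which encodes spermidine synthase, an enzyme of polyamine synthesis and a known MYC target. SRM read 12.40, 12.75 and 12.98 with shNSC in SK-N-BE(2) and 9.48, 8.42 and 8.81 with shERK5-4, but 13.04, 13.02 and 13.55 with shERK5-5. The shERK5-4 arrays lay far below every control array, and the shERK5-5 arrays lay just above them. SRM fell by 3.81 ± 0.25 with shERK5-4 (adjusted p = 1.7e-10), or 14.0-fold, and changed by 0.49 ± 0.25 with shERK5-5 (95% confidence interval -0.03 to 1.02, adjusted p = 0.263). In CHLA-90 SRM read 13.83, 13.55 and 13.85 with shNSC, 9.77, 10.07 and 10.67 with shERK5-4 and 14.00, 13.55 and 13.89 with shERK5-5. The shERK5-4 arrays again lay below every control array, whereas here the shERK5-5 arrays overlapped the controls, with a fall of 3.57 ± 0.25 with shERK5-4 (adjusted p = 7.7e-10), or 11.9-fold, and a change of 0.07 ± 0.25 with shERK5-5 (interval -0.46 to 0.60). Among 9 other polyamine genes, AZIN1 (-1.10) and AMD1 (-0.62) fell and PAOX (0.61) rose with shERK5-4 in SK-N-BE(2). These are 22.2% and 11.1% of the 9, beside 11.7% and 12.2% of all probes. In CHLA-90 with shERK5-5, OAZ1 (-0.62) and AZIN2 (-0.73) fell and PAOX (0.60) rose, beside 6.84% and 5.85% of all probes. With shERK5-4 in CHLA-90, 0 of the 9 passed by limma, where 8.25% of all probes fell and 10% rose. With shERK5-5 in SK-N-BE(2), 0 of the 9 passed, beside 6.07% and 6.76%.

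**Figure D2:**
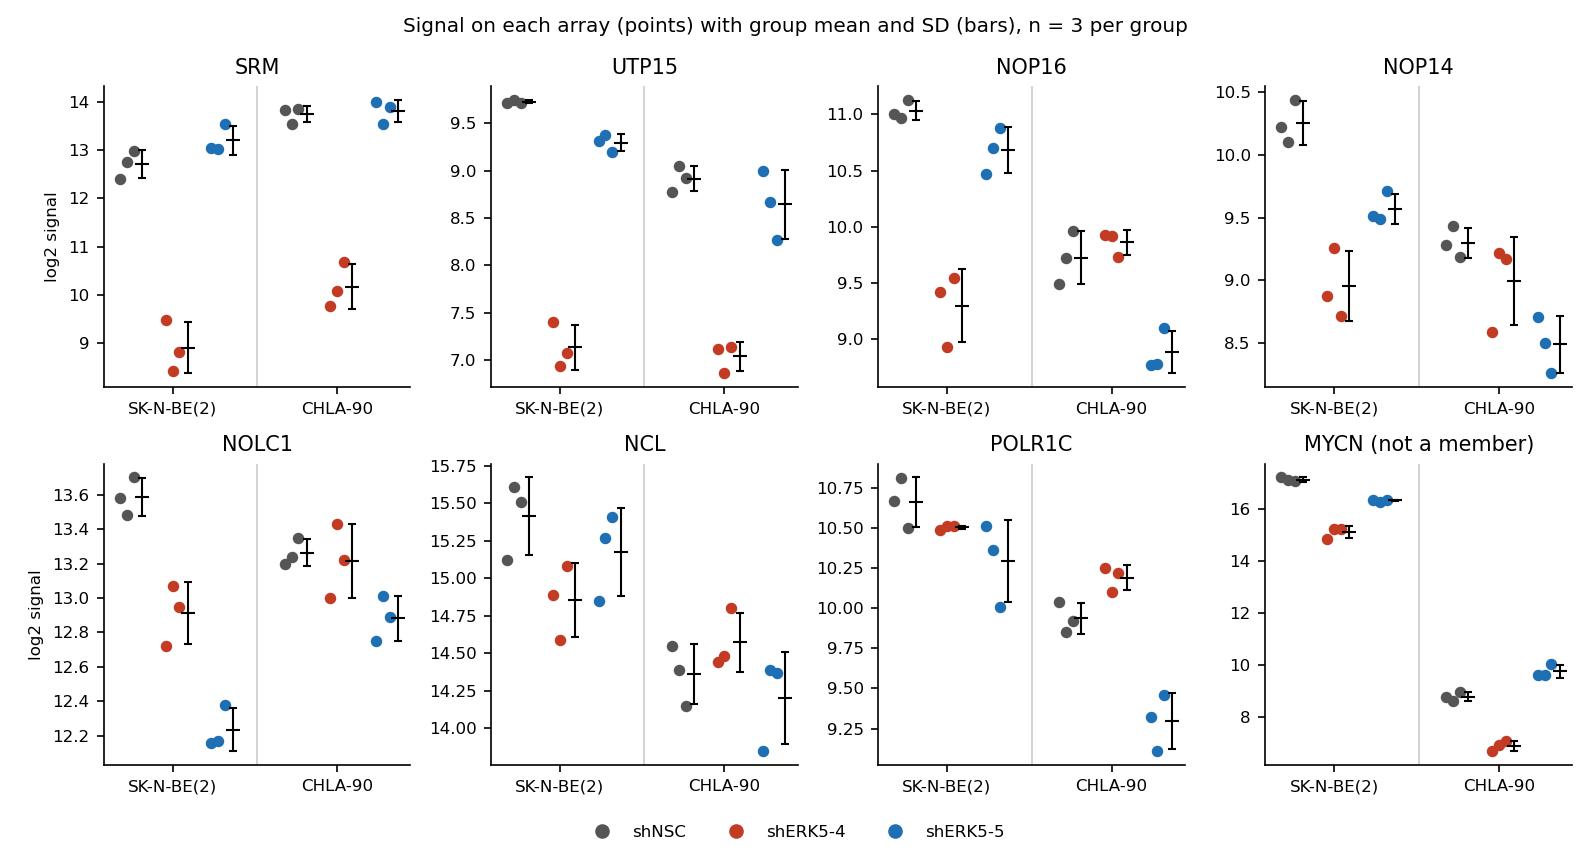
Points are the log2 signals of single arrays for 7 genes of the list and MYCN, by line and hairpin, and black bars give the group mean and SD (n = 3), each panel with its own scale. SRM and UTP15 were low on all 6 shERK5-4 arrays, NOLC1 was lowest with shERK5-5 in SK-N-BE(2), and POLR1C was lowest with shERK5-5 in CHLA-90.

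With shERK5-5 in SK-N-BE(2), NOLC1, NOP14 and DDX10 fell. By limma these were 3 of 33 genes (9.09%), and 0 rose, beside 6.07% and 6.76% of all probes, and 10 and 0 did at an unadjusted p under 0.05. The median log2 change was -0.20, beside -0.00 for all probes, and 22 of the 33 changes were below 0. On single arrays the median relative to the shNSC mean was -0.22, -0.17 and -0.13. For 12 genes the shERK5-5 arrays lay below all shNSC arrays and for 5 above them, beside 14.2% and 15.7% of all probes. Both hairpins were compared with the same 3 shNSC arrays, so their results in a line are not independent.

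NOLC1 had the largest decrease with shERK5-5 in SK-N-BE(2), where it read 12.16, 12.17 and 12.38. These arrays lay below both the shNSC and the shERK5-4 arrays, and NOLC1 fell by 1.35 ± 0.16 (adjusted p = 2.4e-06), or 2.55-fold. NOP14 read 9.51, 9.49 and 9.71, between the other groups, and fell by 0.68 ± 0.19 (adjusted p = 0.0183). DDX10 read 9.72, 9.92 and 9.34, below every shNSC array, and fell by 0.69 ± 0.20 (adjusted p = 0.0251). NOP14 no longer passed when shNSC replicate 3 or shERK5-5 replicate 1 or 2 was left out (adjusted p of 0.0889 at most), and the DDX10 call without shNSC replicate 2 or 3 or shERK5-5 replicate 1 or 3 (0.162 at most). The count of genes that fell was 1 without shNSC replicate 3 and 1 without shERK5-5 replicate 1, while NOLC1 passed in all 6 cases. UTP20 read 10.21, 10.22 and 10.04, below every shNSC array, with a change of -0.65 ± 0.22 just outside the threshold (adjusted p = 0.0513).

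The other genes described above did not pass the test with shERK5-5 in SK-N-BE(2). UTP15 read 9.31, 9.38 and 9.20 (-0.43 ± 0.18, adjusted p = 0.136) and NOP16 10.47, 10.70 and 10.88 (-0.35 ± 0.18, adjusted p = 0.274), both below every control array. GAR1 read 9.96, 10.38 and 10.88 (0.09 ± 0.24) and FBL 12.25, 12.26 and 12.25 (0.06 ± 0.18), both overlapping the controls. NCL read 14.85, 15.27 and 15.41 (-0.24 ± 0.20) and NPM1 15.68, 15.73 and 15.71 (-0.20 ± 0.18), the latter below every control array and the former overlapping them. NOP2 read 4.82, 5.13 and 5.01 (-0.06 ± 0.18), UTP4 13.63, 13.79 and 13.88 (-0.09 ± 0.20), and NOP10 14.81, 14.88 and 14.78 (0.31 ± 0.23). NOP2 and UTP4 overlapped the controls, and NOP10 lay above them. Of the polymerase I genes, POLR1A read 10.99, 11.00 and 11.52, below every control array (-0.48 ± 0.20, adjusted p = 0.142). POLR1B read 6.78, 6.50 and 6.52 (-0.16 ± 0.20), POLR1C 10.51, 10.36 and 10.01 (-0.37 ± 0.16), and TCOF1 8.34, 8.48 and 8.57 (0.01 ± 0.27), with overlap in each case. BYSL read 8.83, 9.21 and 9.03, overlapping the lowest control array, with a change of -0.50 ± 0.19 (adjusted p = 0.0953).

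The difference between the hairpins was tested directly in each line. In SK-N-BE(2), 16 of the 33 genes were lower with shERK5-4 than with shERK5-5 and 1 was higher (48.5% and 3.03%), beside 12.6% and 11.8% of all probes. The median log2 difference was -0.49, beside 0.03 for all probes. For 20 genes the shERK5-4 arrays lay below all shERK5-5 arrays and for 1 above, beside 17.1% and 16.8% of all probes. SRM differed by -4.30 ± 0.25 (adjusted p = 1.7e-11), UTP15 by -2.16 ± 0.18 (3.7e-09), GAR1 by -1.65 ± 0.24 (1.3e-05) and NOP16 by -1.39 ± 0.18 (3.3e-06). All 3 box C/D and U3 genes were lower with shERK5-4, NOP58 by 0.92, RRP9 by 0.58 and FBL by 0.58. The gene that was higher with shERK5-4 was NOLC1 (0.68 ± 0.16, adjusted p = 0.0024). Of the 16 lower genes 10 passed without each array in turn. NOP14, FBL, WDR75, PES1, RRP9 and UTP20 did not, with adjusted p of 0.0557 (PES1, without shERK5-4 replicate 2) to 0.166 at most. Each of the 6 arrays ended at least 1 of these 6 calls, and the count was 12 to 14 without 1 array.

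**Figure D3:**
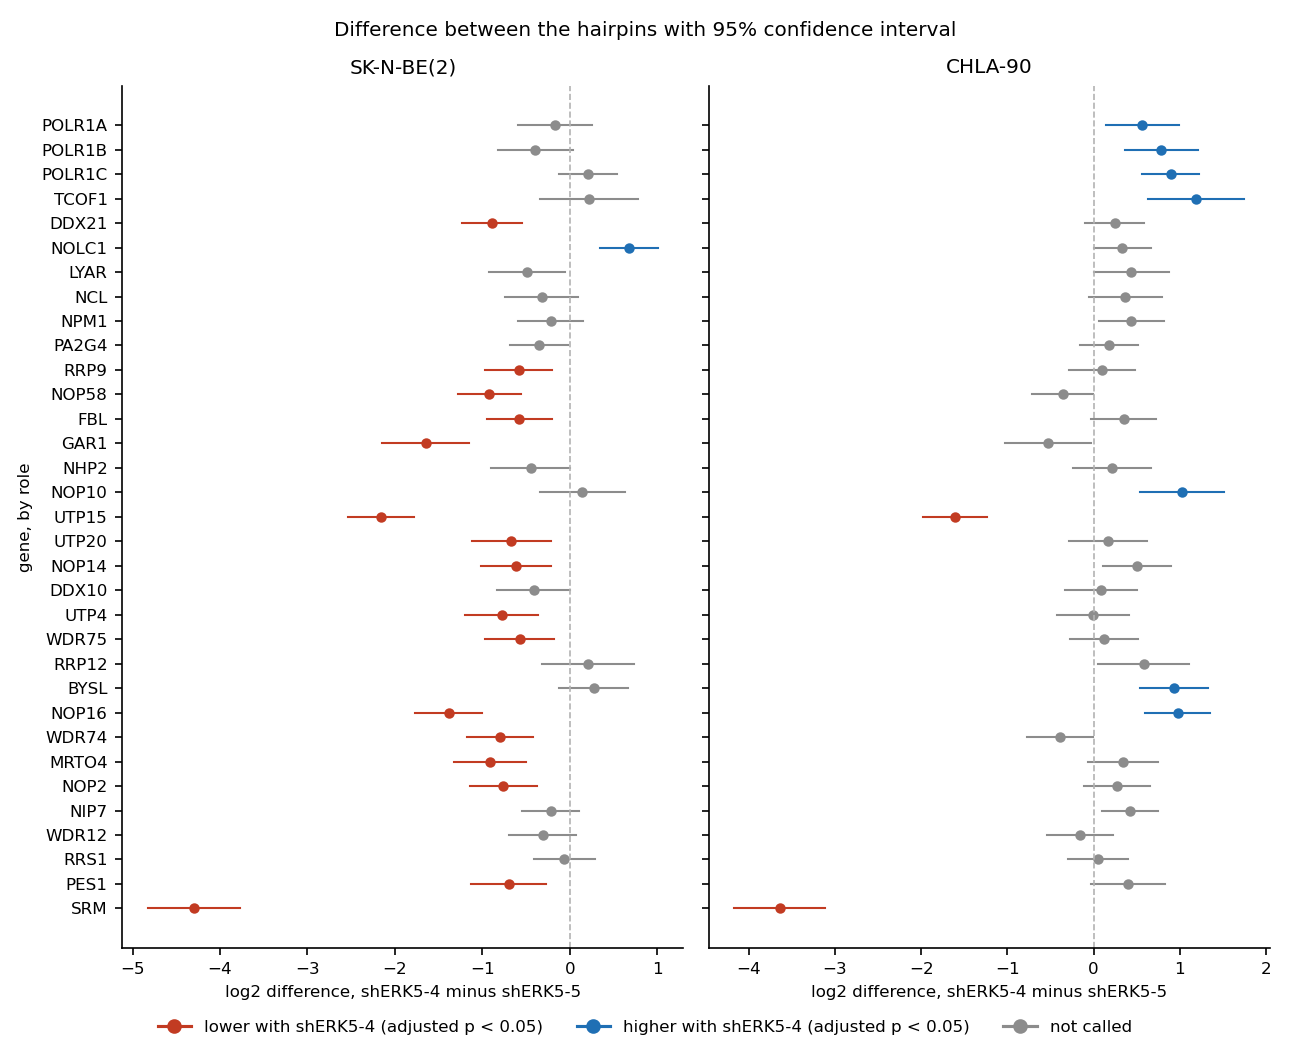
Points give the log2 difference of shERK5-4 from shERK5-5 for each of the 33 genes (rows, by role) in SK-N-BE(2) on the left and CHLA-90 on the right, and lines give the 95% confidence interval. Red and blue mark genes that were lower or higher with shERK5-4 at an adjusted p under 0.05, 16 and 1 on the left and 2 and 7 on the right.

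In CHLA-90, which lacks MYCN amplification, few of the genes passed with shERK5-4. By limma 2 of 33 fell and 1 rose (6.06% and 3.03%), beside 8.25% and 10% of all probes, and the median log2 change was -0.05, beside 0.01. On single arrays the median relative to the shNSC mean was -0.02, 0.06 and -0.03. The arrays did not overlap for 6 genes that were lower and 4 that were higher, beside 16.6% and 20.9% of all probes. Besides SRM, UTP15 fell, reading 8.78, 9.05 and 8.92 with shNSC, 7.12, 6.86 and 7.14 with shERK5-4 and 9.00, 8.67 and 8.27 with shERK5-5. Its shERK5-4 arrays stood apart from all the others, with a fall of 1.88 ± 0.18 (adjusted p = 7.5e-08), or 3.67-fold, while the change with shERK5-5 was -0.27 ± 0.18. TCOF1 rose, reading 9.28, 8.72 and 9.32 with shNSC, 9.49, 10.39 and 9.97 with shERK5-4 and 8.18, 9.28 and 8.82 with shERK5-5. Its shERK5-4 arrays lay above the others, with a rise of 0.84 ± 0.27 (adjusted p = 0.0315). It no longer passed when shNSC replicate 2 or shERK5-4 replicate 2 or 3 was left out (adjusted p of 0.191 at most), which left 0 genes that rose.

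With shERK5-5 in CHLA-90, 5 of 33 genes fell (15.2%) and 0 rose by limma, beside 6.84% and 5.85% of all probes. At an unadjusted p under 0.05 by limma the counts were 12 and 0, beside 12.4% and 13.6% of all probes. The median log2 change was -0.29, beside 0.05 for all probes, and 29 of the 33 changes were below 0. On single arrays the median relative to the shNSC mean was -0.34, -0.17 and -0.29. For 11 genes all shERK5-5 arrays lay below all shNSC arrays and for 0 above, beside 12.7% and 14.1% of all probes. NOP16 read 9.49, 9.72 and 9.96 with shNSC, 9.93, 9.92 and 9.73 with shERK5-4 and 8.77, 8.78 and 9.10 with shERK5-5. Only the shERK5-5 arrays stood apart, and NOP16 fell by 0.84 ± 0.18 with that hairpin (adjusted p = 0.0033). NOP14 read 9.28, 9.43 and 9.19 with shNSC, 8.59, 9.22 and 9.17 with shERK5-4 and 8.71, 8.50 and 8.26 with shERK5-5. The shERK5-5 arrays lay below every shNSC array, with a fall of 0.81 ± 0.19 (adjusted p = 0.0066), while shERK5-4 overlapped both groups (-0.31 ± 0.19). BYSL read 9.75, 9.91 and 9.57 with shNSC, 9.88, 9.81 and 10.18 with shERK5-4 and 8.88, 9.15 and 9.04 with shERK5-5. Its shERK5-5 arrays were the lowest, with a fall of 0.72 ± 0.19 (adjusted p = 0.0143).

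Polymerase I subunits were among the genes that fell with shERK5-5 in CHLA-90. POLR1B read 8.30, 8.22 and 8.68 with shNSC, 8.10, 8.39 and 8.61 with shERK5-4 and 7.40, 7.61 and 7.73 with shERK5-5. POLR1C read 10.04, 9.85 and 9.92 with shNSC, 10.25, 10.10 and 10.22 with shERK5-4 and 9.32, 9.11 and 9.46 with shERK5-5. In both genes the shERK5-5 arrays lay below the other 6 arrays, and POLR1B fell by 0.82 ± 0.20 and POLR1C by 0.64 ± 0.16 (adjusted p = 0.0098 and 0.0103). POLR1A read 11.16, 11.38 and 11.47 with shNSC, 11.36, 11.47 and 11.44 with shERK5-4 and 10.79, 10.72 and 11.06 with shERK5-5, which also lay lowest, but its change of -0.48 ± 0.20 did not pass (adjusted p = 0.13). Of the 5 decreases with shERK5-5, those of NOP16 and NOP14 passed without each array in turn. BYSL no longer passed when shNSC replicate 2 or shERK5-5 replicate 1 was left out (adjusted p of 0.0648 at most), POLR1B without shNSC replicate 3 (0.0673) and POLR1C without shNSC replicate 1 (0.0505).

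The abundant nucleolar proteins did not pass in CHLA-90 with either hairpin. NCL read 14.55, 14.39 and 14.15 with shNSC, 14.44, 14.48 and 14.80 with shERK5-4 and 13.85, 14.39 and 14.37 with shERK5-5, and NPM1 read 13.72, 13.84 and 13.31, then 13.64, 13.84 and 13.83, and 13.00, 13.58 and 13.41. For both genes each hairpin group overlapped shNSC, while all shERK5-4 arrays lay above all shERK5-5 arrays, as for 20.4% of all probes. The lowest value of each gene was that of shERK5-5 replicate 1. FBL read 11.94, 11.76 and 11.99 with shNSC, 11.87, 11.69 and 11.67 with shERK5-4 and 11.12, 11.37 and 11.69 with shERK5-5, with shERK5-5 below every control array and a change of -0.50 ± 0.18 (adjusted p = 0.0714). NOLC1 read 13.20, 13.24 and 13.35, then 13.00, 13.43 and 13.22, and 12.75, 13.01 and 12.89 with shERK5-5, which again lay below the controls (-0.38 ± 0.16, adjusted p = 0.127). GAR1 read 10.20, 10.28 and 9.96, then 9.93, 9.87 and 9.38, and 10.34, 10.57 and 9.86, with shERK5-4 just below the controls and a change of -0.42 ± 0.24 (adjusted p = 0.276). UTP4 read 14.87, 14.94 and 15.12 with shNSC, 14.61, 14.65 and 14.68 with shERK5-4 and 14.73, 14.69 and 14.53 with shERK5-5, with both hairpins below the controls and changes of -0.33 ± 0.20 each. For UTP20, DDX10 and NOP2 the groups lay closer together or overlapped. UTP20 read 9.75, 9.67 and 9.82 with shNSC, 9.64, 9.74 and 9.72 with shERK5-4 and 9.73, 9.35 and 9.52 with shERK5-5. DDX10 read 7.71, 7.87 and 7.97, then 7.72, 7.74 and 7.48, and 7.41, 7.73 and 7.54. NOP2 read 5.24, 5.23 and 5.58, then 5.40, 5.87 and 5.47, and 5.19, 5.39 and 5.33, and the changes of these 3 genes lay between -0.29 (DDX10 with shERK5-5) and 0.23 (NOP2 with shERK5-4).

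Between the hairpins in CHLA-90, 2 genes were lower and 7 higher with shERK5-4 than with shERK5-5 (6.06% and 21.2%), beside 12.4% and 14.8% of all probes. After quantile normalization of all arrays the split was 5 lower and 6 higher. The median log2 difference was 0.33, beside -0.05 for all probes. SRM (-3.64 ± 0.25) and UTP15 (-1.61 ± 0.18) were lower with shERK5-4. The 4 polymerase I genes were all higher with shERK5-4, POLR1A by 0.57 ± 0.20, POLR1B by 0.79 ± 0.20, POLR1C by 0.89 ± 0.16 and TCOF1 by 1.19 ± 0.27 (adjusted p = 0.0417, 0.0059, 0.00021 and 0.0019). For each of these 4 genes all shERK5-4 arrays lay above all shERK5-5 arrays, as they did for 13 genes of the list and for 20.4% of all probes. For 3 genes they lay below, beside 19.3%. NOP16 (0.98 ± 0.18), BYSL (0.93 ± 0.19) and NOP10 (1.03 ± 0.23) were also higher. NOP10 read 15.06, 15.01 and 14.87 with shNSC, 15.44, 15.44 and 15.51 with shERK5-4 and 13.63, 14.85 and 14.83 with shERK5-5, the lowest value being that of shERK5-5 replicate 1, and it passed without each array in turn. POLR1A lost its call without any of the 3 shERK5-4 arrays or shERK5-5 replicate 1 or 2 (adjusted p of 0.121 at most).

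Counted over the 4 comparisons with shNSC, 20 of the 33 genes fell in 1, 5 in 2, 1 in 3 and 0 in all 4, while 7 fell in none by limma. The gene that fell in 3 was NOP14, which encodes a nucleolar factor for 18S ribosomal RNA and fell with both hairpins in SK-N-BE(2) and with shERK5-5 in CHLA-90. Of the genes that fell with shERK5-4, SRM and UTP15 did so in both lines, which is 8.7% of the 23 in SK-N-BE(2) and 100% of the 2 in CHLA-90. Of those that fell with shERK5-5, NOP14 did so in both lines, which is 33.3% of 3 and 20% of 5. These tallies were not made over all probes, so whether they differ from those of other genes was not tested.

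The difference of the shERK5-4 effect between the lines was tested with an interaction contrast. For 7 of 33 genes (21.2%) the change in CHLA-90 exceeded the change in SK-N-BE(2), beside 3.89% of all probes, and for 0 it was below, beside 3.33% (17 and 0 by limma at an unadjusted p under 0.05). Of the 33 differences 32 were positive, with a median of 0.61, beside 0.00 for all probes. NOP16 differed by 1.87 ± 0.26 (adjusted p = 5.7e-05), UTP20 by 1.28 ± 0.31 (0.0116), GAR1 by 1.14 ± 0.34 (0.0435) and NOP2 by 1.05 ± 0.26 (0.014). NOP14 differed by 0.99 ± 0.27 (adjusted p = 0.0257), DDX21 by 0.93 ± 0.23 (0.0157) and RRP9 by 0.86 ± 0.26 (0.0463). DDX21 read 14.03, 14.05 and 14.26 with shNSC and 13.23, 13.70 and 13.04 with shERK5-4 in SK-N-BE(2), against 14.30, 14.27 and 14.21 and 14.43, 14.49 and 14.28 in CHLA-90. The groups were separate in SK-N-BE(2) and overlapped in CHLA-90. RRP9 read 7.29, 6.98 and 7.22 and 5.96, 6.40 and 6.38 in SK-N-BE(2), against 7.56, 7.10 and 7.74 and 7.43, 7.56 and 7.25 in CHLA-90, with the same pattern.

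**Figure D4:**
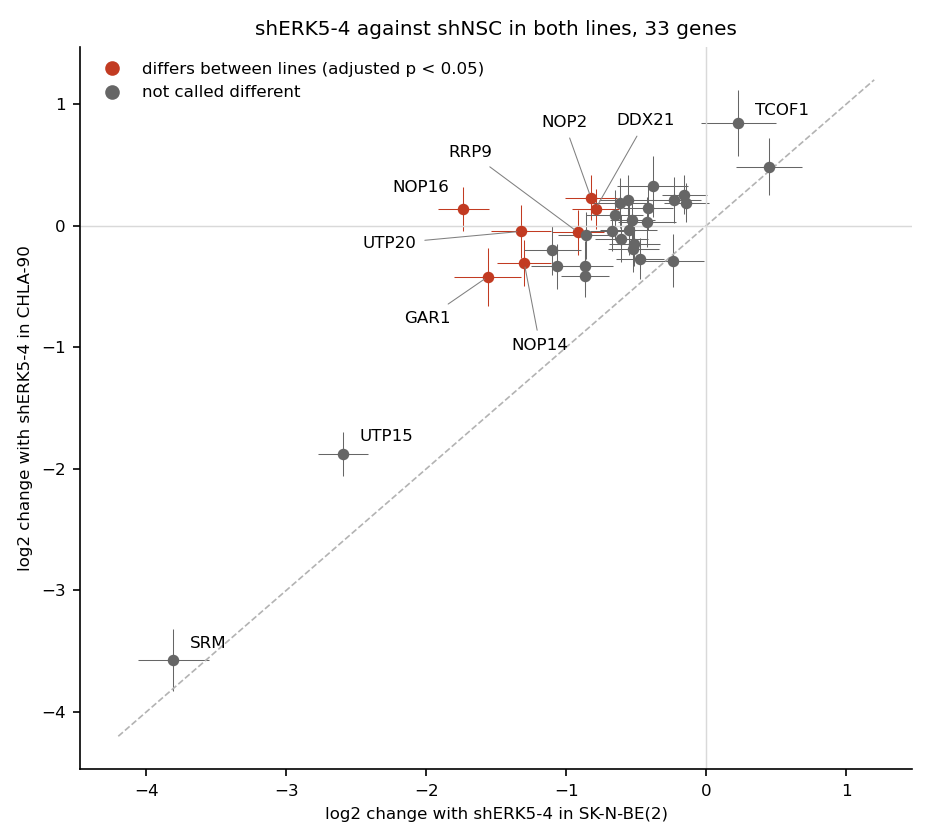
Each point is 1 of the 33 genes, with its log2 change against shNSC with shERK5-4 in SK-N-BE(2) on the horizontal axis and in CHLA-90 on the vertical axis, and lines of 1 SE. The dashed line marks equal change in both lines, and red marks the 7 genes whose change differed between lines. SRM and UTP15 were far below 0 on both axes, and 32 of 33 points lay above the dashed line.

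The largest decreases, those of SRM and UTP15, were not among the 7 called differences, although both differences were also above 0. SRM differed between the lines by 0.23 ± 0.36 (95% confidence interval -0.51 to 0.98), so that a difference of up to 0.98 was within its error, and UTP15 by 0.72 ± 0.25 (interval 0.19 to 1.24, adjusted p = 0.0987). Of the 7 calls, those of NOP16, UTP20 and DDX21 passed without each of the 12 arrays in turn. The NOP2 call was lost without CHLA-90 shERK5-4 replicate 2 (adjusted p = 0.0549). NOP14 was lost in 6, RRP9 in 7 and GAR1 in 10 of the 12 cases, with adjusted p of 0.0846, 0.14 and 0.112 at most. GAR1 held when SK-N-BE(2) shERK5-4 replicate 1 or CHLA-90 shERK5-4 replicate 3 was the array left out. RRP9 held for SK-N-BE(2) shNSC replicate 2 and shERK5-4 replicates 2 and 3, and for replicate 3 of CHLA-90 shNSC and of CHLA-90 shERK5-4. NOP14 held for replicates 1 and 2 of both SK-N-BE(2) groups, CHLA-90 shNSC replicate 2 and CHLA-90 shERK5-4 replicate 1. The count was 4 without SK-N-BE(2) shNSC replicate 3, 4 without CHLA-90 shNSC replicate 1 and 3 without CHLA-90 shERK5-4 replicate 2. For shERK5-5, 1 gene differed between the lines (3.03%, beside 2.4% of all probes) and 0 did in the other direction, beside 2.99%. At an unadjusted p under 0.05 by limma 5 genes lay below 0 and 1 above, beside 9.98% and 9.62% of all probes. The 1 gene that passed with adjustment was NOLC1, with a difference of 0.97 ± 0.23 (adjusted p = 0.0135). The median difference was -0.12, beside 0.04 for all probes.

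The control groups of the lines were compared after each array's median had been subtracted. With shNSC, 23 of the 33 genes (69.7%) were lower in CHLA-90 than in SK-N-BE(2) and 1 (3.03%) was higher, beside 37.1% and 19.2% of all probes. The median log2 difference was -1.01, beside -0.27 for all probes. With the values as deposited, where the median of all probes is 0.45, the split was 14 lower and 7 higher, and after quantile normalization it was 21 and 4. DDX10 was lower in CHLA-90 by 3.21 ± 0.21, NPM1 by 3.00 ± 0.18 and NOP16 by 2.03 ± 0.19 (adjusted p = 9.4e-12, 2.6e-12 and 4.2e-09). NCL was lower by 1.77 ± 0.21, and FBL by 1.01 ± 0.18. All 6 scaffold and multifunctional genes were lower in CHLA-90 relative to the array median. POLR1B was higher in CHLA-90 by 0.92 ± 0.21 (adjusted p = 0.00063), while POLR1A (-1.03) and POLR1C (-1.44) were lower. SRM did not pass (0.32 ± 0.25, interval -0.21 to 0.84). MYCN, amplified in SK-N-BE(2), was lower in CHLA-90 by 9.05 ± 0.18. The BYSL call (-0.50 ± 0.19, adjusted p = 0.0301) was lost without replicate 1 or 3 of either shNSC group (adjusted p of 0.133 at most), and with the values as deposited its difference was 0.22.

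The pathway holds many genes beyond the list. Of 95 other ribosome biogenesis genes 92 had a probe, and in SK-N-BE(2) with shERK5-4 40 fell (43.5%) and 3 rose (3.26%), beside 11.7% and 12.2% of all probes, with a median of -0.47. With shERK5-5 in SK-N-BE(2) 11 fell (12%) and 3 rose (3.26%), beside 6.07% and 6.76% of all probes (median -0.18). In CHLA-90 with shERK5-4, 11 fell (12%) and 5 rose (5.43%), not far from the 8.25% and 10% of all probes (median -0.06). Each of these counts of 11 decreases was lower whenever any single array of its comparison was left out. With shERK5-5 in CHLA-90, 17 fell (18.5%) and 0 rose, beside 6.84% and 5.85% of all probes (median -0.24). At an unadjusted p under 0.05 by limma 32 fell and 2 rose there, beside 12.4% and 13.6% of all probes. The difference between lines of the shERK5-4 effect was above 0 for 80 of the 92 genes. It passed the limma test for 15 of them (16.3%, beside 3.89% of all probes), all above 0, and for 0 below 0 (34 and 0 by limma at an unadjusted p under 0.05). SENP3, a nucleolar protease that removes SUMO from ribosome biogenesis factors, fell by 3.17 ± 0.24 in SK-N-BE(2) and by 2.42 ± 0.24 in CHLA-90 with shERK5-4. RRP1B, a nucleolar protein, fell by 2.28 ± 0.19 and 1.68 ± 0.19 with that hairpin. NOL6, a processome subunit, fell in all 4 comparisons, by 2.73 and 1.17 in SK-N-BE(2) and by 1.01 and 0.84 in CHLA-90, with shERK5-4 and shERK5-5. UTP25, also of the processome, and GNL3L, a nucleolar GTPase, fell with shERK5-5, by 1.23 and 1.14 in SK-N-BE(2) and by 1.03 and 1.05 in CHLA-90. UTP25 also fell with shERK5-4 in SK-N-BE(2), by 1.04, whereas GNL3L changed there by -0.49 (adjusted p = 0.0606). UBTF, which activates ribosomal DNA transcription, rose by 0.95 ± 0.21 with shERK5-4 in SK-N-BE(2) and by 0.65 ± 0.21 in CHLA-90. RRN3, an initiation factor of RNA polymerase I, rose with that hairpin by 0.53 in SK-N-BE(2) and 0.58 in CHLA-90, and SDAD1 by 0.62 and 0.69. RRN3 fell with shERK5-5 in CHLA-90 (-0.57). DDX49, POLR1D and UTP11 rose with shERK5-5 in SK-N-BE(2) (0.79, 0.88 and 0.62), while DDX49 fell with shERK5-4 in both lines (-0.63 in SK-N-BE(2) and -0.67 in CHLA-90). RRP15 rose with shERK5-4 in CHLA-90 (0.66) and fell with it in SK-N-BE(2) (-0.88).

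**Figure D5:**
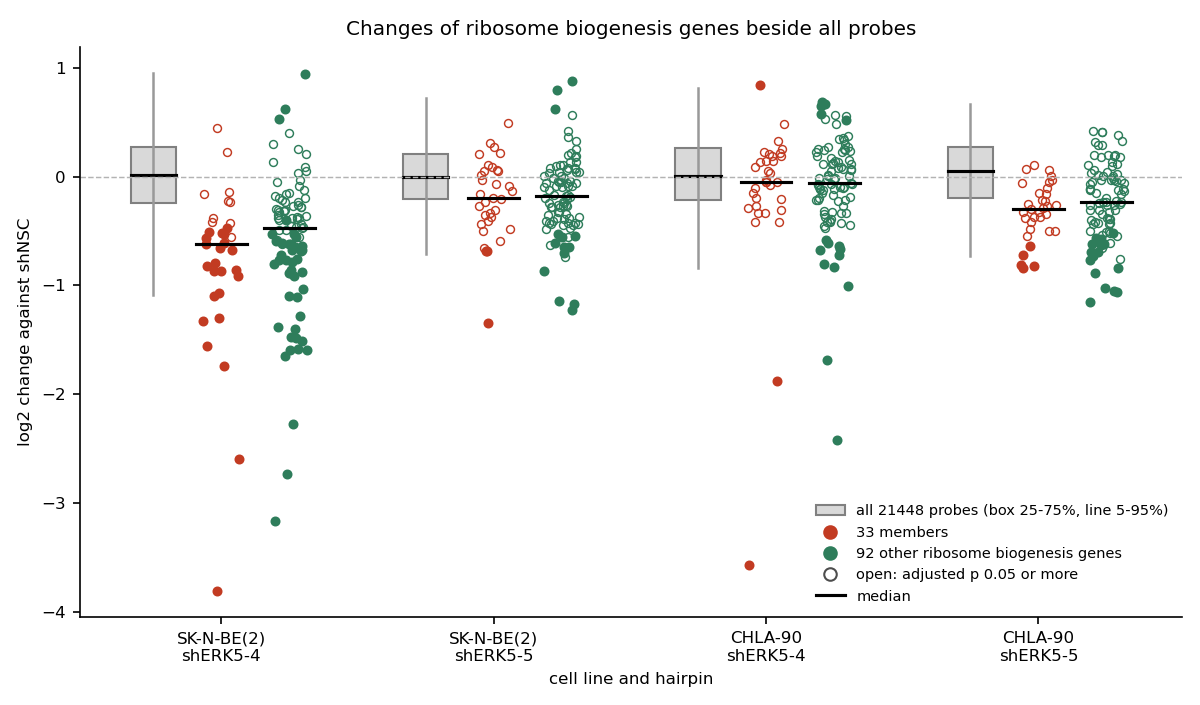
Points give log2 changes against shNSC for the 33 genes of the list (red) and 92 other ribosome biogenesis genes (green) in each line and hairpin, filled where the adjusted p was under 0.05. Grey boxes span the 25 to 75 percentiles and grey lines the 5 to 95 percentiles of all 21448 probes, and black bars are medians. The median of the 33 genes was lowest with shERK5-4 in SK-N-BE(2), at -0.62, and nearest to that of all probes with shERK5-4 in CHLA-90, at -0.05.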

How the data were processed

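Total RNA of 18 cultures was labelled with biotin and measured on whole-transcript arrays, per the labels' protocols. The authors deposited 1 log2 value per probe and array. The log base was inferred from the range of the values, and how they were summarised and normalized is not given in the sources used here. No detection calls were used. Of 21448 probes 17709 had 1 gene symbol and 3739 had none, and the probe with the highest mean stood for a gene. Groups came from the labels. One limma model (3.58.1, R 4.3.3) with 6 group means was fitted to all arrays with lmFit and eBayes (12 residual and 9.588 prior degrees of freedom), with Benjamini-Hochberg adjustment over all probes and a threshold of 0.05. The lines under shNSC were compared after subtracting array medians. The fit was tested on simulated data. The 42 genes, the other lists and the tests were chosen with earlier results of these data known. Values on every array are given for up to 6 called genes of the list with the smallest p in each comparison with shNSC, up to 3 in each direction in the other comparisons, and NCL, NPM1, FBL and POLR1A. Outside that rule, array values are also given for UTP4 and NOP10, and for DDX21 and RRP9 with shNSC and shERK5-4. Other pathway genes were named by the same kind of rule, up to 3 in each direction. Alternatives were median subtraction, quantile normalization, leaving out dim probes, a replicate block, a fit to 1 line, eBayes with trend, array weights, a threshold of 0.01, averaged probes and leaving out arrays. Promoter windows came from a RefSeq table, with NOP58, TCOF1, RRS1, NOLC1 and RRP12 not analysed. Python 3.11.15 with matplotlib 3.10.9 drew the figures.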

Additional observations from a re-analysis of the deposited data

Results flagged for a closer look

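For 7 genes of the list the effect of shERK5-4 against shNSC differed between the lines by the interaction contrast of limma at an adjusted p under 0.05. The effect in CHLA-90, less the effect in SK-N-BE(2), was 1.87 for NOP16, 1.28 for UTP20, 1.14 for GAR1, 1.05 for NOP2, 0.99 for NOP14, 0.93 for DDX21 and 0.86 for RRP9 on the log2 scale. For shERK5-5 the effect differed for NOLC1, by 0.97. Groups of 3 arrays are too small for a test of single outlying arrays.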

How the results depend on the processing

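Counts of genes of the list that fell or rose kept within 1.5 times their value except as follows. In the lines under shNSC, values as deposited gave 14 lower and 7 higher in CHLA-90 (in place of 23 and 1), with BYSL at 0.22 and TCOF1 at 0.66, both of opposite sign, as these values keep a median difference of 0.45 between lines. Quantile normalization gave 5 lower between hairpins in CHLA-90, 4 called positive differences between lines for shERK5-4 and 4 higher in CHLA-90 under shNSC. A fit to the arrays of 1 line left 0 that rose with shERK5-4 in CHLA-90. Array weights gave 6 lower with shERK5-5 in SK-N-BE(2), 2 higher with shERK5-4 in CHLA-90 and 2 higher in CHLA-90 under shNSC. A threshold of 0.01 gave in SK-N-BE(2) 15 lower with shERK5-4 and 1 with shERK5-5, 0 higher with shERK5-4 and 3 lower with shERK5-5 in CHLA-90, 10 lower between hairpins in SK-N-BE(2), and 1 and 0 called differences between lines for shERK5-4 and shERK5-5. Leaving out the 2 least alike arrays, chosen after seeing the data, gave in SK-N-BE(2) 1 higher with shERK5-4 and 5 lower with shERK5-5, 2 higher with shERK5-4 in CHLA-90 and 2 higher in CHLA-90 under shNSC. Of the 92 other ribosome biogenesis genes, quantile normalization left 9 called differences between lines for shERK5-4 in place of 15. A fit to 1 line left 1 that rose with shERK5-5 in SK-N-BE(2) in place of 3. Array weights gave 17 that fell with shERK5-5 in SK-N-BE(2), and 17 that fell and 9 that rose with shERK5-4 in CHLA-90, in place of 11, 11 and 5. Without the 2 least alike arrays 2 rose with shERK5-5 in CHLA-90 in place of 0. At 0.01 in SK-N-BE(2), 1 rose with shERK5-4, and 0 rose and 5 fell with shERK5-5. At 0.01 in CHLA-90, 5 fell and 0 rose with shERK5-4, 7 fell with shERK5-5, and 5 differences between lines were called for shERK5-4. The cause of these shifts, other than the stricter threshold and fewer arrays, was not tested.

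Leaving out 1 array, the counts lower and higher ranged from 17 to 21 and 0 to 0 for shERK5-4 and 1 to 3 and 0 to 0 for shERK5-5 in SK-N-BE(2), and from 2 to 2 and 0 to 1 and 4 to 6 and 0 to 0 in CHLA-90. Between hairpins they ranged from 12 to 14 and 1 to 1 in SK-N-BE(2) and 2 to 3 and 6 to 9 in CHLA-90. Called differences between lines, all above 0, ranged from 3 to 7 for shERK5-4 and 1 to 1 for shERK5-5, and the lines under shNSC from 22 to 24 lower and 1 to 1 higher. Of the 92 other pathway genes, those that fell ranged from 30 to 41 for shERK5-4 and 5 to 8 for shERK5-5 in SK-N-BE(2) and from 5 to 7 and 8 to 17 in CHLA-90, and called differences between lines for shERK5-4 from 9 to 16. The 11 that fell on all arrays with shERK5-5 in SK-N-BE(2), and the 11 with shERK5-4 in CHLA-90, lay above their ranges.

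The deviations of replicate 3 arrays from their group means correlated in both lines (r from 0.15 to 0.20 in SK-N-BE(2), 0.11 to 0.20 in CHLA-90), but those of same-numbered replicate 1 or 2 arrays gave r from -0.13 to 0.15, so not every pair was over 0.1 and the numbers were not taken as a pairing. With the replicate block 24 genes fell with shERK5-4 in SK-N-BE(2) in place of 23, 8 in place of 7 were higher with shERK5-4 than with shERK5-5 in CHLA-90, and the other counts were as reported. No gene of the list had several probes, so averaging probes changed none of their values before the fit. Low signals limit what can be seen, since the background of each probe is unknown.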
